A study of Canis lupus familiaris with 8 samples.

Results

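COL1A1 and COL1A2 encode the chains of collagen I, COL3A1 encodes the chain of collagen III, and FN1 encodes fibronectin. On the Affymetrix canine array used here, these are 4 of 6540 genes named by a single symbol, and 17 of 23913 probe sets carried 1 of these 4 symbols alone in the platform annotation: 2 for COL1A1, 5 for COL1A2, 4 for COL3A1 and 6 for FN1. Cardiac total RNA from 8 male dogs of 23 to 27 kg was hybridised, 1 array per dog. In the HHcy group, 4 dogs received methionine in the drinking water for 2 weeks, which produced chronic hyperhomocysteinemia, a raised level of the amino acid homocysteine in blood, and 4 control dogs were sampled at the same time. The labels give the tissue as cardiac without a chamber, and give no breed, methionine dose or homocysteine level. The 4 genes were chosen by symbol, but selected on their HHcy and control signals as already known from these same arrays, so that contrast is described for them and not tested.

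Collagen I and collagen III are the main fibrillar collagens of the heart. Fibroblasts secrete them as procollagens, which are hydroxylated and folded inside the cell, trimmed outside it, and cross-linked into the fibres that carry tension between muscle cells. Fibronectin is a secreted glycoprotein that binds collagen and cell-surface integrins. Cells deposit it in the matrix, and the liver also releases a soluble form into plasma.

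The deposited signals are MAS5 intensities, and the mean signal of each array, with 2% left out at each end, lay between 500.08 and 500.10 units. Of 14301 probe sets that passed a filter on dim signals, limma called 14 at a Benjamini-Hochberg adjusted p under 0.05, all 14 higher in HHcy; with each array scaled to a common median signal it called 22, 15 higher and 7 lower. Over everything tested the log2 fold change had a median of 0.15, and median scaling moved it to -0.19 and quantile scaling to 0.011, which sets the level against which the folds of single genes stand. The 3'/5' signal ratio of the actin and GAPDH control probe sets, a sign of RNA degradation when high, was uneven among the HHcy arrays. Its mean log2 value was 4.02 for HHcy 5, 6.31 for HHcy 6, 1.89 for HHcy 7 and 1.29 for HHcy 8, while the controls ran from -0.43 to 1.51. The HHcy arrays averaged 3.38 ± 2.28 and the control arrays 0.90 ± 0.90 (SD, n = 4 each). By exact permutation over the dogs, two-sided, p was 0.0857, where 0.0286 is the lowest that can be reached. Markers of heart muscle cells, 13 of 19 listed, had a median log2 difference from the control mean of -4.81 on HHcy 6, against -0.21 to 0.058 on HHcy 5, 7 and 8 and -0.31 to 0.36 on the controls. Of the 13 markers, MYL3 and MYL7, myosin light chains, were below every control on HHcy 5 and HHcy 7 as well, with MYL3 at 6933 and 10261 against a lowest control of 13604, and MYL7 at 809.9 and 712 against 1412. TNNT2 and MB on HHcy 5, and TTN and RYR2 on HHcy 7, were also below every control. HHcy 6 stands apart by the list median, and values without it are given below. Precision is limited throughout by having 4 arrays in a group.

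The bright probe sets of both collagen I genes and 1 of fibronectin had higher signals in HHcy hearts, about 3-fold to 5-fold on the log2(signal + 24) scale, while no probe set of collagen III differed by as much. Of the 17 probe sets, 9 passed the brightness filter: 2 of COL1A1, 3 of COL1A2, 1 of COL3A1 and 3 of FN1. With limma 0 of these 9 passed (6 at an unadjusted p under 0.05), where 0.0979% of all probe sets passed and 17.8% had an unadjusted p under 0.05. In 3 of all 17 the lowest HHcy signal exceeded the highest control signal, which held for 6.31% of all probe sets. Nothing is read from these counts, since the contrast was known when the genes were chosen.

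For COL1A1, probe set 1585698_at had signals of 11012, 8170.5, 10159 and 2137 on HHcy 5, 6, 7 and 8, against 2901, 4038, 2086 and 952 on control 1, 2, 3 and 4. HHcy 5, 6 and 7 lay above all controls, and HHcy 8 lay among them. The means were 7869.5 ± 4003 in HHcy and 2494 ± 1303 in the controls (SD, n = 4 each), with a log2 fold change of 1.59 ± 0.54 (SE). The other COL1A1 probe set, 1582455_at, had 2183.5, 1150.4, 3604 and 514 on HHcy 5, 6, 7 and 8, against 282, 307, 336 and 221 on control 1, 2, 3 and 4. Here all HHcy arrays lay above all controls, HHcy 8 the least so, and the controls kept within a narrow range, with an SD of 0.24 on the log2 scale against 1.19 in HHcy. Its log2 fold change was 2.29 ± 0.49 (SE), so the 2 COL1A1 probe sets agreed in direction. Both were read on the same arrays, so these standard errors do not give the error of their difference. The difference in size was not tested.

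COL1A2, whose product joins that of COL1A1 in the collagen I molecule, had 3 bright probe sets. On 1594427_at the signals were 10887, 7686, 14363 and 1645 on HHcy 5, 6, 7 and 8, against 1917, 1638, 1921 and 452.5 on control 1, 2, 3 and 4. HHcy 8 lay between control 2 and control 1, and control 4 lay far below the other controls. The log2 fold change was 2.35 ± 0.64 (SE). Probe set 1594426_at, designed from the same source sequence, had 7056, 5988, 9937 and 1693 on HHcy 5, 6, 7 and 8, against 1485, 1461, 1505 and 389 on control 1, 2, 3 and 4, without overlap. Its log2 fold change was 2.25 ± 0.56 (SE), and because the pair share a source sequence they are not independent measures.

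The remaining bright COL1A2 probe set, 1582723_at, had 2225, 4113, 4134 and 1007.5 on HHcy 5, 6, 7 and 8, against 823, 1016, 1044 and 422 on control 1, 2, 3 and 4. HHcy 8 again lay within the range of the controls, and the log2 fold change was 1.64 ± 0.45 (SE). The other 2 COL1A2 probe sets were dim on every array and were not tested. Their HHcy means were 26.2 ± 15.8 and 6.90 ± 5.93, against control means of 18.3 ± 15.6 and 3.53 ± 2.82 (SD, n = 4 each), and both ranges overlapped.

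Collagen III was poorly measured. Its brightest probe set, 1591762_at, had signals of 154, 169, 219 and 12.1 on HHcy 5, 6, 7 and 8, against 203, 317, 132 and 70.3 on control 1, 2, 3 and 4. The highest array was control 2 and the lowest HHcy 8, and the log2 fold change of -0.48 ± 0.60 (SE) was smaller than its error. Without HHcy 8 it was 0.14. The other 3 COL3A1 probe sets were too dim to be tested, with HHcy means of 49.5 to 120 units and control means of 24.8 to 57.1. Their log2 fold changes were 0.95 ± 0.60, 0.48 ± 0.43 and 0.17 ± 0.56 (SE), and HHcy 8, the lowest array on 1591762_at, was the highest on all 3 of them. The 4 collagen III probe sets therefore did not agree on the order of the arrays. On 1593385_at, HHcy 6, 7 and 8, at 143.7, 88.98 and 232.8 units, lay above the highest control, at 87.95. HHcy 5 lay among the controls, at 12.6.

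Fibronectin had 1 bright probe set, 1598567_at, with signals of 10479, 16883, 4359 and 4827 on HHcy 5, 6, 7 and 8, against 2276, 2414, 1717 and 921 on control 1, 2, 3 and 4. All HHcy arrays lay above all controls, and HHcy 6 was highest. The means were 9137 ± 5865 in HHcy and 1832 ± 678 in the controls (SD, n = 4 each), with a log2 fold change of 2.17 ± 0.45 (SE). The other 5 FN1 probe sets did not show this difference. Probe set 1582768_at had 175, 174, 58.6 and 76.4 on HHcy 5, 6, 7 and 8, against 90.5, 109, 65.8 and 51.9 on control 1, 2, 3 and 4, with HHcy 5 and 6 above the controls and HHcy 7 and 8 among them. Its log2 fold change was 0.42 ± 0.42 (SE).

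Probe set 1582799_s_at of FN1 had 99.97, 92.1, 122 and 90.3 on HHcy 5, 6, 7 and 8, all within the control range of 74.7 to 171, and a log2 fold change of -0.17 ± 0.36 (SE). The last 3 FN1 probe sets were too dim to be tested and had log2 fold changes of -0.76 ± 0.48, -0.53 ± 0.52 and 0.24 ± 0.52 (SE). Fibronectin RNA is spliced in alternative forms, but the part of the transcript that each probe set reads was not used here.

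**Figure D1:**
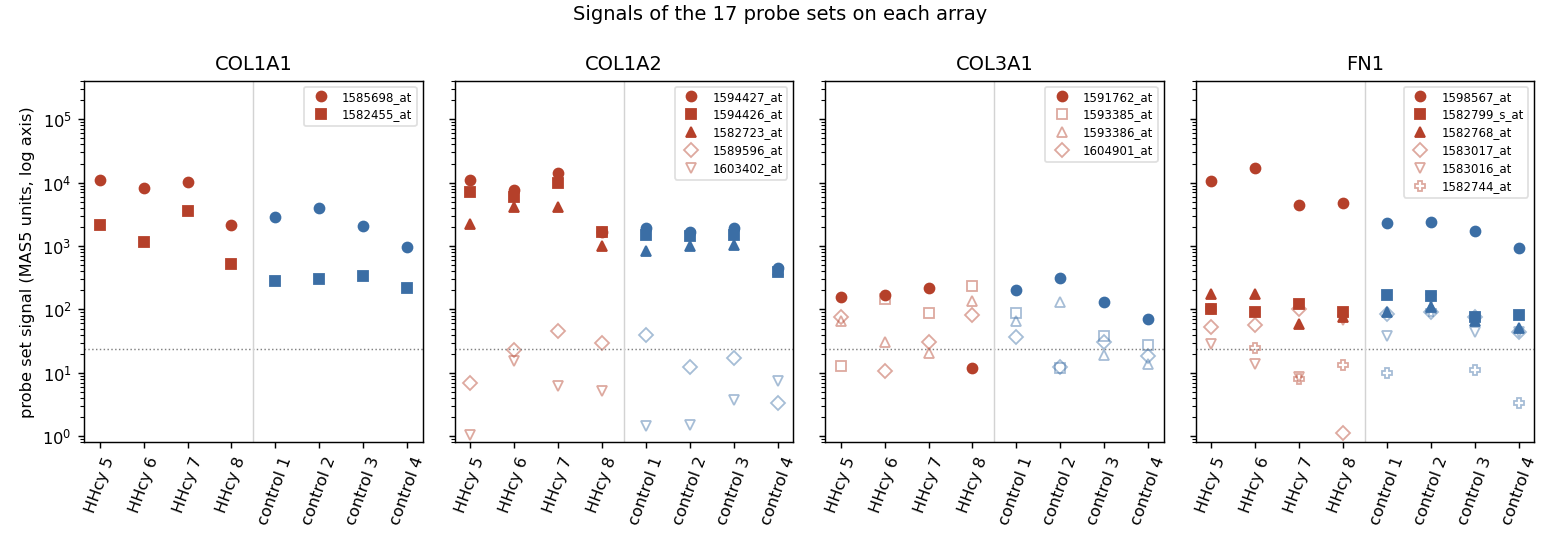
Signal of each of the 17 probe sets on each array (MAS5 units, log axis), with HHcy in red and controls in blue; filled symbols mark the 9 that passed the filter, and the dotted line is the added constant of 24 units. The filled collagen I symbols of HHcy 5, 6 and 7 sit above the controls and those of HHcy 8 close to them, while the FN1 probe sets other than 1598567_at reach at most 175 units.

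Across the 17 probe sets, the size of the fold change went with brightness. The 6 probe sets with the highest median signal over all arrays, from 425 units upwards, had log2 fold changes of 1.59 to 2.35. The other 11, with medians of at most 161 units, had log2 fold changes of -0.76 to 0.95, and in all 11 the groups overlapped. This split was made after the values were seen. In all 6 of the brightest, HHcy 5, 6 and 7 lay above every control and control 4 was the lowest control. Among these 6, HHcy 8 was the lowest HHcy array in all 5 collagen I probe sets but not in fibronectin, where HHcy 7 was lowest.

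**Figure D2:**
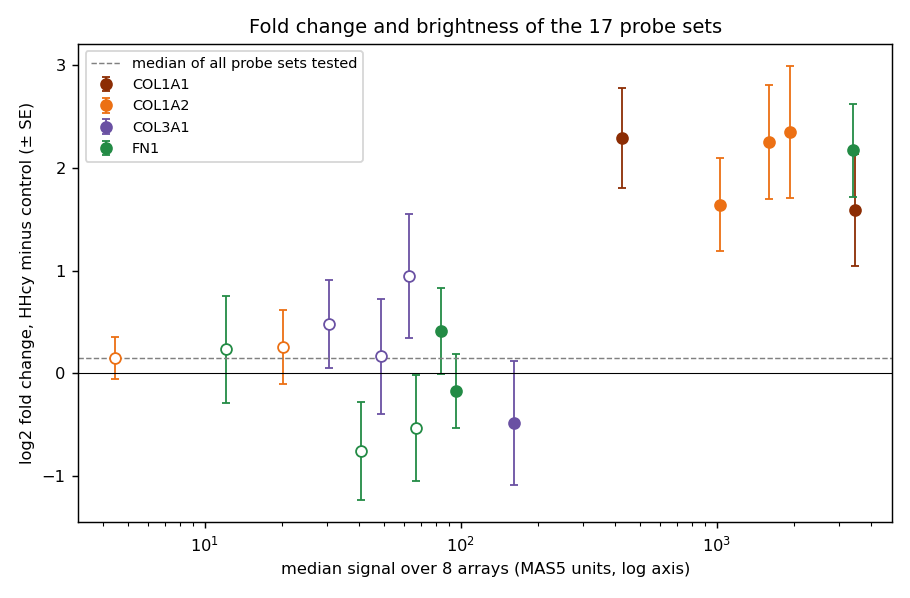
Log2 fold change, HHcy minus control, with its standard error, against the median signal over 8 arrays (MAS5 units, log axis) for the 17 probe sets; filled symbols passed the filter. The 6 probe sets above 425 units lie at 1.59 to 2.35, and the rest lie at -0.76 to 0.95 around the dashed median of all probe sets, 0.15.

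Agreement between probe sets was also examined within groups, which the contrast does not enter. Each group's mean was taken out of the log2 values, and the 9 tested probe sets were correlated in 36 pairs over the 8 arrays, with exact two-sided permutation of the arrays within each group over 576 orders (smallest possible p = 0.00174). No pair passed after Benjamini-Hochberg adjustment over the 36, the lowest adjusted value being 0.0625. The COL1A2 pair from the same source sequence had r = 0.99 and rho = 0.93 (exact p = 0.00174 and 0.00347), and r = 0.94 without HHcy 8 and control 4. These were the 2 arrays farthest from the median of 1594427_at. In each pair the 2 arrays left out were chosen from only 1 of its probe sets. The COL1A2 probe set with a source sequence of its own, 1582723_at, followed them less closely. It had r = 0.89 and rho = 0.60 with 1594427_at (exact p = 0.0295 and 0.281, adjusted 0.0802 for r), and r = -0.089 without HHcy 8 and control 4. With 1594426_at it had r = 0.91 and rho = 0.69 (exact p = 0.0295 and 0.125, adjusted 0.0802 for r), and r = 0.20 without those arrays, so both relations rest on them. The COL1A1 pair had r = 0.77 and rho = 0.67 (exact p = 0.0191 and 0.111), and without HHcy 8 and control 4 r was 0.25, so that relation rests on those arrays.

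The brightest probe sets of COL1A1 and COL1A2 had r = 0.94 and rho = 0.64 within groups (exact p = 0.0243 and 0.128, adjusted 0.0802 for r), and r = 0.088 without HHcy 8 and control 4. These 2 probe sets were low on both arrays, and among the other 6 arrays they did not keep the same order. The other COL1A1 probe set, 1582455_at, was closer to COL1A2 by rank, with r = 0.86 and rho = 0.95 against 1594427_at (exact p = 0.00521 and 0.0139, adjusted 0.0625 for r), and r = 0.66 without HHcy 7 and HHcy 8. Against 1594426_at it had r = 0.82 and rho = 0.86 (exact p = 0.00521 and 0.0174, adjusted 0.0625 for r), and r = 0.58 without the same arrays. Those arrays were chosen from 1582455_at, so these values cannot be compared with values left without HHcy 8 and control 4. COL1A1 1585698_at and COL3A1 1591762_at had r = 0.97 and rho = 0.88 (exact p = 0.00694 and 0.0191, adjusted 0.0625 for r), and r = 0.84 without HHcy 8 and control 4. For the other COL1A1 probe set, 1582455_at, r with COL3A1 1591762_at was 0.79 and rho 0.52 (exact p = 0.0226 and 0.233, adjusted 0.0802 for r), and r = 0.29 without HHcy 7 and HHcy 8. COL3A1 1591762_at and both COL1A1 probe sets were lowest on HHcy 8 among the HHcy arrays and on control 4 among the controls. The mean of this COL3A1 probe set was not higher in HHcy, while the means of the dimmer COL3A1 probe sets were. For the brightest probe sets of COL1A1 and FN1, r was 0.61 and rho 0.52 (exact p = 0.175 and 0.238, adjusted 0.332 for r), and r = -0.022 without HHcy 8 and control 4.

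Among FN1 probe sets, 1598567_at and the dimmer 1582768_at had r = 0.94 and rho = 0.86 within groups (exact p = 0.0104 and 0.0208, adjusted 0.0749 for r), and r = 0.91 without HHcy 7 and control 4. Probe sets 1598567_at and 1582799_s_at had r = 0.29 and rho = 0.38 (exact p = 0.53 and 0.424, adjusted 0.596 for r), and r = 0.30 without the same arrays.

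**Figure D3:**
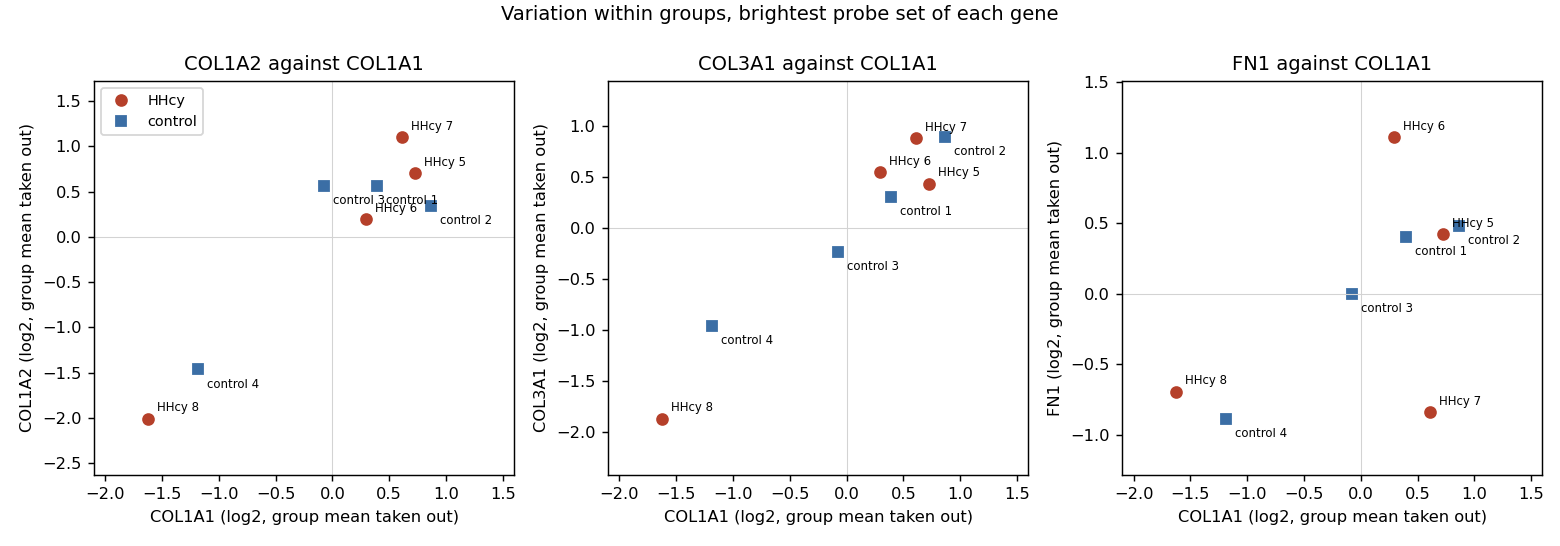
Log2 values of COL1A2, COL3A1 and FN1 against those of COL1A1 on the 8 arrays, each gene by its brightest probe set with its group mean taken out (red circles HHcy, blue squares controls). The COL1A1 values are the same in all 3 panels, with HHcy 8 and control 4 at their low end, and HHcy 7 departs from the others for FN1.

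Collagen I and fibronectin did not peak on the same HHcy array: HHcy 7 was highest in 4 of the 5 bright collagen I probe sets, and HHcy 6 in the bright fibronectin one. By the brightest probe set of each gene and relative to the control mean, COL1A2 was highest on HHcy 7, by 3.45 on the log2 scale, followed by 3.05 on HHcy 5, 2.55 on HHcy 6 and 0.34 on HHcy 8. COL1A1 stood at 2.31, 1.88, 2.20 and -0.042 on HHcy 5, 6, 7 and 8, and by its other probe set, 1582455_at, at 2.85, 1.93, 3.56 and 0.81. Fibronectin stood at 2.59, 3.28, 1.33 and 1.48 on the same arrays. COL1A2 minus FN1, on the log2 scale and relative to the control mean, ran from -1.13 on HHcy 8 to 2.12 on HHcy 7, an SD of 1.46, against -0.58 to 0.57 and an SD of 0.49 on the controls. COL1A1 minus FN1 had an SD of 1.11 in HHcy and 0.29 in controls. COL1A1 minus COL1A2 had an SD of 0.36 in HHcy, the lowest of the 3 differences there, and of 0.51 in controls, the highest of the 3. It ran from -1.26 to -0.39 on HHcy arrays, against -0.64 to 0.53 on the controls. The other COL1A1 probe set, 1582455_at, did not keep this sign. It stood above COL1A2 on HHcy 7 and HHcy 8, at 3.56 and 0.81 against 3.45 and 0.34. On HHcy 5 and HHcy 6 it stood below COL1A2, at 2.85 and 1.93 against 3.05 and 2.55.

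Arrays with high 3'/5' ratios and markers of other cell types were set beside these values. HHcy 7, with a log2 3'/5' ratio of 1.89 and a heart muscle marker median of -0.21, had the highest COL1A2 value and one of the highest COL1A1 values. FN1 1598567_at was highest on HHcy 6, by 3.28 over the control mean on the log2 scale, and next on HHcy 5, by 2.59. Those 2 arrays had the highest ratios, 6.31 and 4.02. FN1 stood at 1.33 on HHcy 7 and 1.48 on HHcy 8. Without HHcy 6 the log2 fold changes were 1.49 for COL1A1, 2.28 for COL1A2 and 1.80 for FN1, each by the brightest probe set. Without both HHcy 5 and HHcy 6 they were 1.08, 1.90 and 1.40 for the same genes, and 1.23, 1.87 and 1.40 when the ratio entered the model. Without HHcy 8, the lowest HHcy array in collagen I, they were 2.13, 3.02 and 2.40. For COL3A1 1591762_at the value was -0.66 without HHcy 6 and -0.97 without HHcy 5 and HHcy 6. The part of RNA quality in these values was not tested beyond that.

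The fibroblast list, 6 of 12 markers measured, had a summed signal of 31875 to 73528 on HHcy arrays, against 22182 to 32214 on the controls. Its median log2 difference from the control mean was 0.13, 1.43, 0.67 and 0.40 on HHcy 5, 6, 7 and 8, against -0.20 to 0.21 on the controls. With limma 0 of the 6 passed (3 at an unadjusted p under 0.05, all higher, against 11.9% of all probe sets tested). The proteoglycan DCN had a log2 fold change of 0.76 ± 0.30 (SE, limma adjusted p 0.229), and 0.01 and 0.52 on its other probe sets. S100A4, a calcium-binding protein, had 1.06 ± 0.30 (SE, limma adjusted p 0.157). The fibroblast markers were lowest of the HHcy arrays on HHcy 5, where collagen I was among the highest. In whole tissue, more cells of a type and more RNA per cell cannot be told apart, and the part of cell number in the collagen values was not tested.

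Macrophage markers, 14 of 16 measured, had a summed signal of 13217 to 24246 on HHcy arrays, against 7235 to 10011 on the controls, and medians of 0.91, 1.48, 1.02 and 0.70 on HHcy 5, 6, 7 and 8. With limma 0 of the 14 passed (9 at an unadjusted p under 0.05, all higher, against 11.9% of all probe sets tested). Markers of activated fibroblasts, 3 of 8 tested, summed to 3549 to 39685 on HHcy arrays, against 1255 to 5104 on the controls, with 0 passing (0 at an unadjusted p under 0.05). POSTN, a matrix protein of activated fibroblasts, named after its values were seen, was too dim to be tested. It had 127, 244, 133 and 123 units on HHcy 5, 6, 7 and 8, all above the controls, which ran from 7.40 to 77.8. In 6.31% of all probe sets every HHcy array likewise lay above every control. In the 3 tested members of the list the groups overlapped. The summed signal was highest on HHcy 6, where ACTA2, the smooth muscle actin, had a signal of 28849, against 2073 to 2961 on HHcy 5, 7 and 8 and 684 to 3329 on the controls.

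Smooth muscle and pericyte markers, 6 of 11 measured, summed to 9850 to 63276 on HHcy arrays, against 8004 to 14819 on the controls. The sum peaked on HHcy 6, but this list shares ACTA2 and TAGLN with the activated fibroblast list. MYH11, on this list only, was also highest there, with 20719 units where no control exceeded 2078. DES and KCNJ8 went the other way on HHcy 6, with 99.6 and 9.26 units where the lowest controls had 2840 and 286. SMTN lay within its control range. Of the 6, 3 had a log2 fold change above 0. KCNJ8 had -1.26 ± 0.585 (SE), and 0.44 on its other probe set. Endothelial markers, 5 of 11 tested, summed to 23076 to 32730 on HHcy arrays, against 21536 to 29350 on the controls. Most of this sum was PECAM1, at 18454 to 30198 units on HHcy arrays and 16550 to 24469 on the controls. The median log2 fold change of the list was -0.12, against 0.15 for all probe sets tested, with 2 of the 5 markers above 0. PECAM1 had 0.26 ± 0.24 and VWF -0.59 ± 0.29 (SE), each by its brightest probe set. Liver and plasma protein genes, measured because the liver makes plasma fibronectin, summed to 510 to 1181 over 5 of 13 genes on HHcy arrays, against 517 to 878 on the controls. Surface-lining and epithelial markers, 3 of 9 tested, summed to 224 to 1586 on HHcy arrays, against 54.3 to 254 on the controls. With limma 0 of the 3 passed, and 2 had an unadjusted p under 0.05, both higher, against 11.9% of all probe sets tested. These were the keratins KRT8 and KRT18, with log2 fold changes of 2.39 ± 0.56 and 2.18 ± 0.51 (SE, limma adjusted p 0.122 and 0.121). In both the groups did not overlap, and on the log2(signal + 24) scale the size was like that of collagen I. Their control means were 48.6 and 34.1 units, near the added 24, so their folds are understated more than those of collagen I. No marker on the array was under 24 units on every array, and the part of these cell types in the collagen and fibronectin values was not tested.

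**Figure D4:**
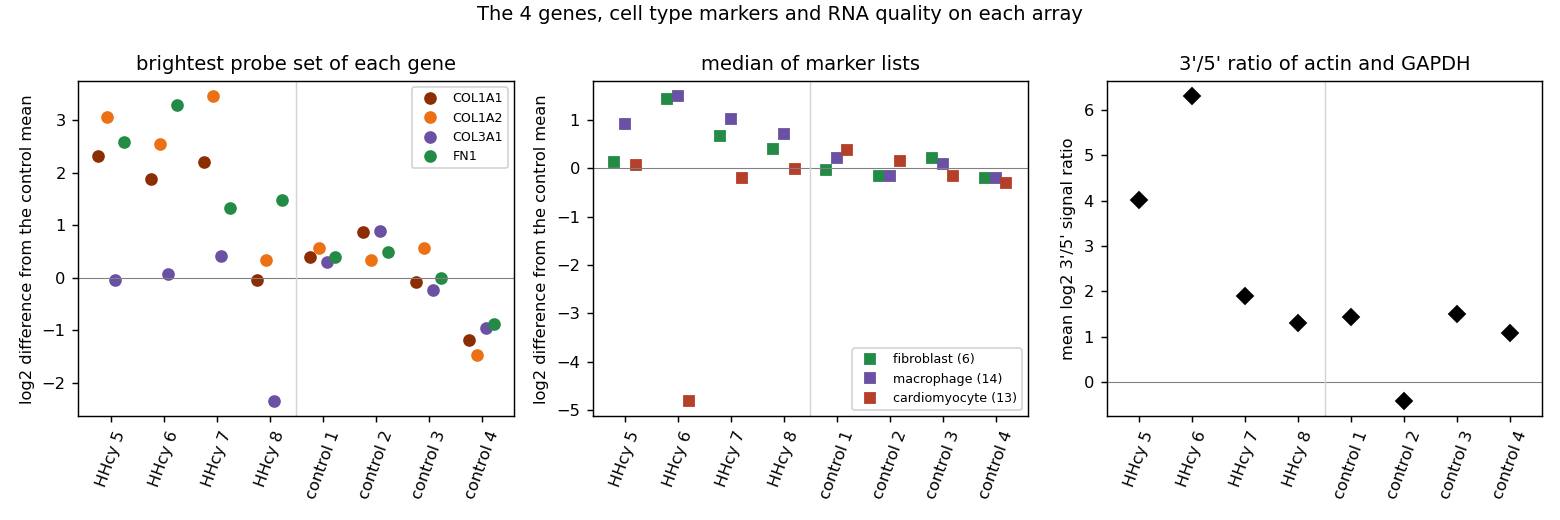
Log2 difference from the control mean on each array for the brightest probe set of each gene (left) and for the median of 3 marker lists with the number of markers in brackets (middle), and the mean log2 3'/5' signal ratio of actin and GAPDH (right), with HHcy arrays left of controls. Collagen I is highest on HHcy 5, 6 and 7, and FN1 on HHcy 5 and HHcy 6. The ratio is highest on HHcy 5 and HHcy 6, and the median of the heart muscle markers is low on HHcy 6 alone.

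The machinery around these proteins was read from 6 gene lists, each gene by its brightest probe set. With limma 0 members of any list passed over all probe sets, against 0.0979% of all probe sets. The counts at an unadjusted p under 0.05 stand beside 11.9% of all probe sets higher and 5.94% lower.

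Enzymes and chaperones of collagen synthesis and processing, 16 of 41 tested, had a median log2 fold change of 0.21, against 0.15 for all probe sets, with 4 higher and 1 lower at an unadjusted p under 0.05. PCOLCE, which speeds the trimming of procollagen, had 837, 2435, 1268 and 857 units on HHcy 5, 6, 7 and 8, against 466, 302, 693 and 199.7 on control 1, 2, 3 and 4. All its HHcy arrays lay above the controls, with a log2 fold change of 1.64 ± 0.42 (SE, limma adjusted p 0.141). P4HA1, a catalytic subunit of the prolyl hydroxylase that stabilises the triple helix, had a mean of 41.1 ± 23.6 units in HHcy and 143 ± 43.1 in the controls (SD, n = 4 each), a log2 fold change of -1.40 ± 0.42 (SE, limma adjusted p 0.162). SERPINH1, the collagen chaperone of the endoplasmic reticulum, named after its values were seen, had 479 ± 98.8 units in HHcy and 519 ± 229 in the controls (SD, n = 4 each), a log2 fold change of -0.043 ± 0.31 (SE, limma adjusted p 0.954).

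Other collagen chains, 9 of 16 tested, had a median log2 fold change of 0.57, and 8 of the 9 lay above the median of all probe sets, with 1 higher at an unadjusted p under 0.05. COL5A1, a chain of the collagen V that seeds collagen I fibrils, had 3538, 7317, 2980 and 1219 units on HHcy 5, 6, 7 and 8, against 1532, 1226, 1512 and 858 on control 1, 2, 3 and 4. As with collagen I, HHcy 8 lay among the controls and the other HHcy arrays above them, with a log2 fold change of 1.30 ± 0.45 (SE, limma adjusted p 0.194). COL12A1, a collagen that coats fibrils, had a log2 fold change of 1.01 ± 0.48 (SE, limma adjusted p 0.297).

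Secreted proteins that bind collagen or fibronectin, 13 of 24 tested, had a median log2 fold change of 0.76, with 13 above 0 and 5 higher at an unadjusted p under 0.05. THBS2, a matricellular thrombospondin, had 1502, 1656, 1562 and 612 units on HHcy 5, 6, 7 and 8, against 609, 809.9, 549 and 249 on control 1, 2, 3 and 4. It shared the low HHcy 8 and the low control 4 of collagen I, with a log2 fold change of 1.24 ± 0.40 (SE, limma adjusted p 0.178). FBLN1, a fibulin that binds fibronectin, had a log2 fold change of 1.54 ± 0.57 (SE, limma adjusted p 0.213), and 9136 units on HHcy 6, against 1381 to 2827 on HHcy 5, 7 and 8 and 431 to 1663 on the controls.

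Receptors for collagen and fibronectin, only 5 of 23 tested, had a median log2 fold change of -0.023, with 1 higher at an unadjusted p under 0.05. SDC2, a heparan sulphate proteoglycan that binds matrix proteins, had 634, 1888, 548 and 480 units on HHcy 5, 6, 7 and 8, against 303, 65.4, 244 and 186 on control 1, 2, 3 and 4. The groups did not overlap, and the log2 fold change was 1.95 ± 0.49 (SE, limma adjusted p 0.140). ITGB1, the integrin beta chain shared by the main collagen and fibronectin receptors, had a log2 fold change of -0.83 ± 0.44 (SE, limma adjusted p 0.341).

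The TGF-beta pathway, a main inducer of matrix genes in fibroblasts, had 7 of 23 members tested and a median log2 fold change of 0.56, with 1 higher at an unadjusted p under 0.05. LTBP3, which holds latent TGF-beta in the matrix, had a mean of 560 ± 372 units in HHcy and 232 ± 77.3 in the controls (SD, n = 4 each), a log2 fold change of 1.07 ± 0.41 (SE, limma adjusted p 0.221). TGFBR2, a signalling receptor, had a log2 fold change of 0.79 ± 0.37 (SE, limma adjusted p 0.287). The ligand TGFB1, named after its values were seen, had 78.4 ± 36.9 units in HHcy and 106 ± 37.8 in the controls (SD, n = 4 each), a log2 fold change of -0.37 ± 0.41 (SE, limma adjusted p 0.643).

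Enzymes that break down collagen and their inhibitors, 9 of 20 tested, had a median log2 fold change of 1.19, with 5 higher at an unadjusted p under 0.05. Groups did not overlap in 4, all higher in HHcy, against 7.49% of probe sets tested. The list pools enzymes and inhibitors, and 7 of the 9 had a log2 fold change above 0. The tested matrix metalloproteinases, named after their values were seen, were split. MMP9 had 1.38 ± 0.51 (SE), but 0.54 and -0.59 on its other probe sets. MMP2 and MMP14 had -0.697 ± 0.585 and -0.55 ± 0.51 (SE). Among the inhibitors, TIMP2 had 1.19 ± 0.42 and TIMP3 0.058 ± 0.25 (SE). TIMP1, an inhibitor of matrix metalloproteinases, had 1829, 2196, 2505 and 1088 units on HHcy 5, 6, 7 and 8, against 713, 376, 504 and 304 on control 1, 2, 3 and 4. Its highest array was HHcy 7 and its lowest HHcy array HHcy 8, the same as for COL1A2, and its log2 fold change was 1.96 ± 0.33 (SE, limma adjusted p 0.0613). TIMP1 passed with array weights and without HHcy 8. CTSS, a lysosomal protease that can cut matrix proteins, had a log2 fold change of 1.28 ± 0.30 (SE, limma adjusted p 0.126) on its brightest probe set. Its other 4 probe sets ran from -0.033 to 0.79.

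**Figure D5:**
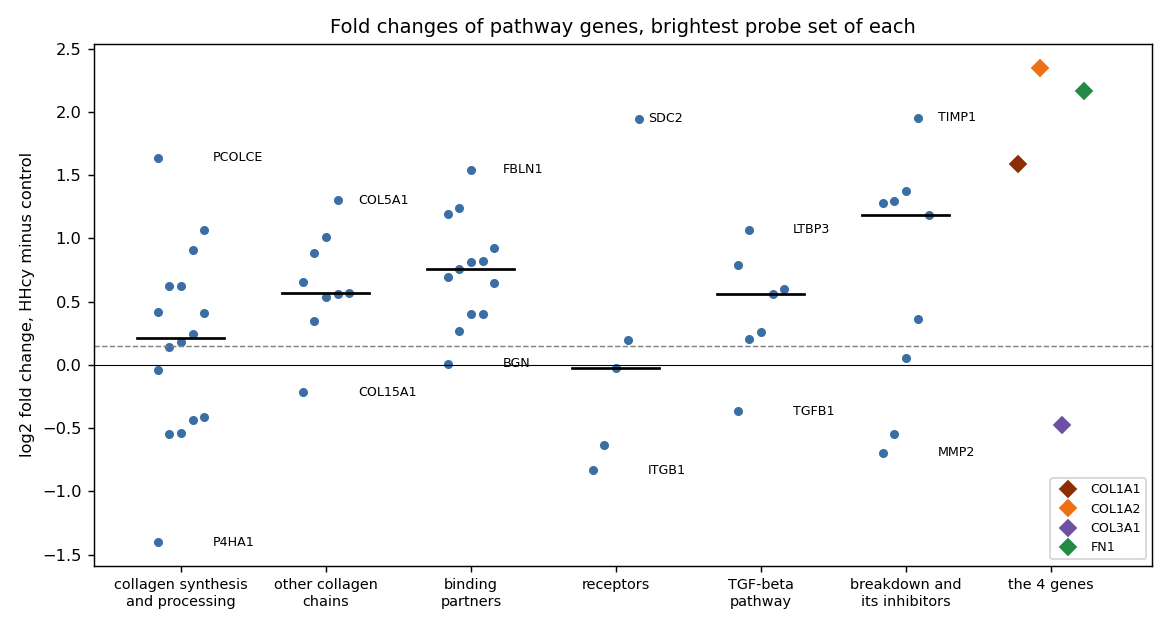
Log2 fold change, HHcy minus control, of each tested member of the 6 pathway lists (points; black bars are list medians; the highest and lowest member of each list are named) and of the brightest probe set of the 4 genes (diamonds). The dashed line is the median of all probe sets, 0.15, and the list medians run from -0.023 for receptors to 1.19 for breakdown and its inhibitors.

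Genes whose pattern over the 8 arrays, with group means taken out, was most like that of each of the 4 were sought among 5011 genes, each by its brightest probe set. Likeness was Pearson's r over 8 arrays, given as a description. THBS2 and DLA-DQB1, a class II histocompatibility gene, were among the 5 most alike to each of COL1A1, COL1A2 and COL3A1, with r of 0.97 and 0.98 for COL1A1, 0.91 and 0.97 for COL1A2, and 0.94 and 0.94 for COL3A1. The rest were VPS35L, CLPX and IDO1 for COL1A1, LOC475080, PPIE and ENPP2 for COL1A2, and SNCAIP, VPS35L and RSPRY1 for COL3A1. For FN1 they were WWC2, KIF11, ST3GAL3, MTF2 and SVEP1, with r of 0.98 to 0.99, and none of them was shared with a collagen gene. With so few arrays the order is loose: of each 5, Spearman's correlation kept 0 for COL1A1, 1 for COL1A2, 3 for COL3A1 and 2 for FN1, and leaving out HHcy 6 kept 2, 2, 2 and 1 for the same genes.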

How the data were processed

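The authors deposited 1 linear intensity per probe set and array. The submitters' processing notes name MAS5, with no version in the sources used here. Gene names are those of the platform annotation, with 1 symbol on 10549 probe sets, several on 138, and 13226 unnamed here; no probe set with several symbols named 1 of the 4 genes. RefSeq's gene table held 10046 of the singly named ones, and 0 symbols needed updating. Values were analysed as log2(signal + 24), 24 being the 20th percentile of all values, which understates folds of dim genes. The 77 control probe sets and then the dimmest 40% by mean log2 value were left out, leaving 14301. limma (version 3.58.1, R version 4.3.3) compared the groups with lmFit and eBayes with an intensity trend. Values of untested probe sets come from the same fit without the filter, and their standard errors from it.

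Samples were grouped by title; p-values cover the spread between dogs and handling together. The genes and the 14 gene lists were chosen with earlier results of these data known. Genes were named by rule: all probe sets of the 4 genes, in each list the 2 members with the lowest p, since 0 passed (otherwise up to 4 that did), and the 5 genes most alike to each; exceptions are marked. Some rule-named markers are given by their list alone. The fit was tested on simulated data. Alternatives were other scaling, added constants of 6 and 96, testing all probe sets, dropping the dimmest 60%, no trend, array weights, the 3'/5' ratio as a covariate, and leaving out arrays. The permutation test and the removal of the 2 farthest arrays in the correlations were added after seeing the data.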

Additional observations from a re-analysis of the deposited data

Results flagged for a closer look

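In 88 groups of 4 arrays (44 probe sets, log2 scale), 1 array lay far from the other 3 in 12, where chance gives about 1 in 20 for a single group. The 88 groups come from the same 8 arrays and are not independent, so no excess is read from the 12. Control 4 was low for COL1A2, at 388.9 units on 1594426_at, against 1461 to 1505 on the other controls, and at 452.5 on 1594427_at, against 1638 to 1921. HHcy 8 was low for COL3A1 1591762_at, at 12.1 units, against 154 to 219 on the other HHcy arrays. Control 2 was high for FN1, at 148 units on 1583016_at, against 38.0 to 44.0 on the other controls, and at 93.1 on 1582744_at, against 3.34 to 10.99.

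Among pathway genes and markers, HHcy 8 was low for THBS2, at 612 units against 1502 to 1656 on the other HHcy arrays, and for the lipopolysaccharide co-receptor CD14, at 479 against 602 to 621. HHcy 6 was high for ACTA2, at 28849 against 2073 to 2961, and for TAGLN, another smooth muscle gene, at 10692 against 1078 to 1518. HHcy 6 was low for the heart muscle light chain MYL3, at 27.4 against 6933 to 14579. Control 1 was high for COL12A1, at 174.7 against 29.98 to 40.4 on the other controls, and control 3 for the keratin KRT18, at 79.0 against 16.9 to 20.3.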

How the results depend on the processing

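The number of probe sets called over the whole array was 14 as reported, 7 with quantile scaling, 22 with median scaling, 9 with the dimmest 60% left out, 76 with array weights, 5 with the 3'/5' ratio in the model, 5 without HHcy 5 and HHcy 6, and 3 to 31 when each array was left out in turn (3 without control 2 and without control 4, 4 without control 3, 5 without HHcy 5, 9 without control 1 and 31 without HHcy 8). Of the 9 tested probe sets of the 4 genes, 1 (FN1) was called with array weights, and 0 to 3 when each array was left out, the 3 being without HHcy 8; the genes were selected on this contrast, so nothing is read from these counts. In the breakdown list 1 member, TIMP1, was called with array weights, and 0 to 1 when each array was left out, the 1 being without HHcy 8. The log2 fold changes of the 6 brightest probe sets, split off after the values were seen, were above 0 in all 18 alternatives. Of 169 recomputed values for the 4 genes, 168 moved by less than 1 SD between replicates. The exception was FN1 1582768_at, at -0.15 without HHcy 5 and HHcy 6. Nothing is read from either count, since the genes were selected on this contrast. Testing all probe sets, dropping the dimmest 60% or fitting no trend leaves a fold unchanged by design. Leaving out 1 of 4 arrays can move a group mean by only part of an SD. COL3A1 1591762_at was not tested with the dimmest 60% left out, and turned to 0.14 without HHcy 8. The dim probe sets are limited by signals near the added constant. No paired analysis was possible because the groups share no replicate numbers.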
